A study of Mus musculus with 8 samples.

Results

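Replacement histone variants are histones that are made outside S phase as well as within it and that take the place of the canonical histones in chromatin. The 8 genes described here were chosen by symbol: H2afx, H2afz, H2afv, H2afy, H2afy2, H3f3a, H3f3b and H1f0. They are 8 of the 39017 genes in a table of exon counts, each is present on 1 row, and all 8 passed the filter on low counts. The RNA came from satellite cells, which are the resident stem cells of muscle fibres, taken from the diaphragm and abdominal muscle of adult Pax3GFP/+ mice, in which 1 Pax3 allele carries the fluorescent reporter in both groups. Each 35 mm dish received 7500 cells, which then grew for 4 days. The medium held either sal003 at 10 µM (4 libraries), an inhibitor of eIF2α dephosphorylation, or its vehicle DMSO (4 libraries). The labels give no age beyond adult and do not say whether libraries came from separate animals or cultures, so each p-value speaks only of the spread among the libraries, which may be technical.

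Canonical histones are supplied in S phase from clustered genes whose transcripts end in a stem-loop without a poly(A) tail. Replacement variants come from single genes with introns or poly(A) tails and are placed by their own chaperones, so their supply does not depend on replication. H2A.X carries the tail that damage kinases phosphorylate, H2A.Z sits beside promoters, macroH2A carries a large extra domain and is linked to silent chromatin, H3.3 marks active genes, and the linker histone encoded by H1f0 is known to accumulate in cells that leave the cycle. In mouse myoblasts the H3.3 chaperone HIRA has been linked to Myod1, and H2A.Z to the activation of Myog.

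H2afz and H2afv encode H2A.Z proteins that are almost the same, and H3f3a and H3f3b encode the same H3.3 protein, and each pair is told apart by differences in both its coding and its untranslated sequence. The first 90 coding bases of each are shown from the GENCODE M21 annotation, with capitals at bases that differ from the paralogue on the paired line. They show how far genes for the same or nearly the same protein differ as DNA, and the untranslated exons make up most of the counted bases. For H2afz on chromosome 3 and H2afv on chromosome 11, 81 of 387 coding bases differ (79.1% identity).
H2afz: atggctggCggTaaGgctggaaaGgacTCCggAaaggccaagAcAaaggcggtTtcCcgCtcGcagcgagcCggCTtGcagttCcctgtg
H2afv: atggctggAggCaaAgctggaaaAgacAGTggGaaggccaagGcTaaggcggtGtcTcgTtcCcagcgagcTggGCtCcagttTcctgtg
For H3f3a on chromosome 1 and H3f3b on chromosome 11, 95 of 411 coding bases differ (76.9% identity).
H3f3a: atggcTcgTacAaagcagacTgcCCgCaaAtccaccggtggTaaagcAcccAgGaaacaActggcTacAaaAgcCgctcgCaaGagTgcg
H3f3b: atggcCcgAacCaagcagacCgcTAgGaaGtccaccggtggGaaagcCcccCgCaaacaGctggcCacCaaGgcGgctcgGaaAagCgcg
The longest identical run is 14 bases in the H2A.Z pair and 23 bases in the H3.3 pair. H3f3c on chromosome 2, a processed pseudogene, differs from H3f3a at 4 of 411 bases (99.0% identity, longest identical run 267 bases), and the capitals in its line mark the 2 differences within the stretch.
H3f3c: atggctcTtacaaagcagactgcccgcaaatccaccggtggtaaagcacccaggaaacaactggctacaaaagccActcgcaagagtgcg

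The shared sequence sets how far each count can be assigned. Of the distinct 50-base stretches in the annotated transcripts of H2afz, 35.4% also occur in transcripts of another gene, mostly of Tmcc1 (30.9%). The share was 27.1% for H3f3a, 15.4% for H2afy2, 9.7% for H2afx, 6.9% for H3f3b, 5.9% for H2afy, 5.7% for H1f0 and 0.0% for H2afv. Matches on either strand were included, so genes that overlap a member on the opposite strand are part of these shares. They held 16.3% (Gm17275) and 3.0% (H3f3aos) for H3f3a, 8.7% for H2afy2 (Aifm2) and 6.9% for H2afx (Gm44335). For H2afy (Gm47071) and H1f0 (Gm49544) they held the whole share. Such parts lie at the member's own locus and do not measure reads with several alignments. The treatment of reads with several alignments is not given in the sources used here. The level of H2afz in particular is therefore uncertain. So is that of H3f3a, which shares stretches with processed copies such as H3f3c (6.7%). Counted genes on the opposite strand, Gm17275 and Aifm2, overlap 18.2% of the exon bases of H3f3a and 10.7% of those of H2afy2, and the strand setting of the counting is also not given.

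Libraries held 37248830 to 39378523 counts in sal003 and 32753929 to 40234107 counts in DMSO. DMSO replicate 2 stood apart, with 14437 genes detected against 17475 to 18076 in the other DMSO libraries, so results that rest on it are also given without it. The satellite cell label was checked on 10 marker genes, all of which were expressed above the filter: 1 was higher in sal003 (Pax7, 0.43 ± 0.10 on the log2 scale), 3 were lower (Ncam1, -0.98 ± 0.07, Cdh15, -0.92 ± 0.10, and Itga7, -0.56 ± 0.09) and 6 were not called (median 0.16). Their summed level was 2620 to 2860 CPM (counts scaled to library size, with TMM factors) in sal003 and 3840 to 4390 CPM in DMSO. Ncam1 weighed most in the difference between these sums, at 1158 ± 35.0 CPM in sal003 and 2285 ± 121 CPM in DMSO (SD, n = 4). Endothelial markers summed to at most 9.28 CPM in sal003 and 12.3 CPM in DMSO, immune markers to at most 5.10 CPM in sal003 and 6.05 CPM in DMSO. The fibro-adipogenic list, with Dcn, Lum and Dpt at 0 counts in every library, summed to 108 ± 9.12 CPM in sal003 and 104 ± 8.37 CPM in DMSO (SD, n = 4). The smooth muscle and pericyte list summed to 201 to 237 CPM in sal003 and 289 to 392 CPM in DMSO. Of its 5 tested genes 3 were lower and 0 higher: Notch3 (-0.92 ± 0.14), Cspg4 (-0.40 ± 0.11) and Mcam (-0.56 ± 0.19). Cspg4 was called in 17 and Mcam in 12 of 19 alternative analyses. Of 4 tested endothelial genes 1, Vwf, was lower (-1.48 ± 0.34) and 0 were higher. No tested immune or fibro-adipogenic gene was called.

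Of the 8 variants, 4 were higher in sal003 and 0 were lower by the quasi-likelihood test of edgeR (adjusted p below 0.05 over 15816 genes), where 10.6% of all tested genes were higher and 12.2% lower. The 4 were H2afx, H2afy, H2afz and H3f3b. At an unadjusted p below 0.05, 5 were higher and 1, H2afv, was lower, while limma-voom called 4 higher and 1 lower and DESeq2 4 higher and 0 lower. Over all genes limma-voom called 2169 higher and 2424 lower, and DESeq2 1833 higher and 2130 lower. For the unadjusted threshold no count over all genes is given, here or beside the lists below. The median log2 fold change of the 8 genes was 0.34, against 0.00 over all tested genes. The sal003 and DMSO libraries did not overlap at 5 of the 8 genes, all of them higher in sal003. Over all tested genes, 13.1% had no overlap and were higher in sal003, and 26.8% had no overlap in either direction. Without DMSO replicate 2, 4 were higher and 1 was lower, beside 13.4% and 13.6% of all tested genes.

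**Figure D1:**
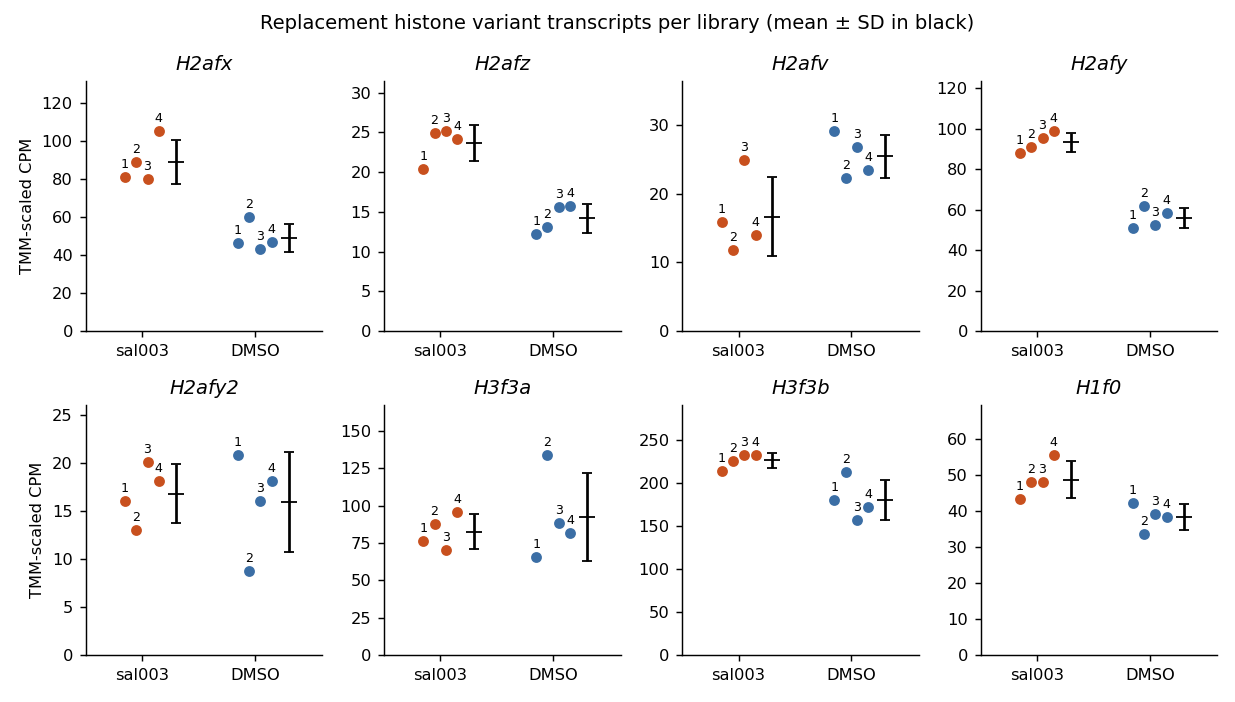
Transcript level of each replacement variant in TMM-scaled CPM (y axis, from 0) in the 4 sal003 libraries and the 4 DMSO libraries, numbered by replicate, with mean ± SD in black. H2afx, H2afz, H2afy, H3f3b and H1f0 show no overlap between the groups, while H3f3a and H2afy2 overlap widely and H2afv overlaps through sal003 replicate 3.

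H2afx, which encodes H2A.X, the variant phosphorylated around DNA breaks, had the largest log2 fold change among the 8 genes (ENSMUSG00000049932, chromosome 9, 44334694 to 44336077, plus strand of mm10). Its level was 81.2, 89.1, 80.3 and 105 CPM in sal003 replicates 1 to 4, against 46.6, 60.0, 43.5 and 47.0 CPM in DMSO replicates 1 to 4. The lowest sal003 library was thus above the highest DMSO library, which was DMSO replicate 2. H2afx had a log2 fold change of 0.85 ± 0.13 (± SE throughout; edgeR adjusted p = 0.000163), which was 0.97 without DMSO replicate 2. The H2afx transcript can be made with or without a poly(A) tail, and the libraries were prepared from total RNA after ribosomal depletion, so the counts can hold both forms.

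Of 20 genes that act on or with phosphorylated H2A.X, 10 were higher in sal003 and 2 lower, with a median log2 fold change of 0.43. Mdc1, the adaptor that binds the phosphorylated tail, stood at 203 ± 18.1 CPM in sal003 and 105 ± 13.8 CPM in DMSO (SD, n = 4; log2 fold change 0.95 ± 0.11). Brca1, the repair factor, stood at 114 ± 5.49 CPM in sal003 and 50.2 ± 7.63 CPM in DMSO (1.18 ± 0.12). Baz1b, the kinase that phosphorylates the H2A.X tyrosine, had a log2 fold change of 0.70 ± 0.08, and Mre11a, the nuclease of the break sensor, of 0.94 ± 0.13. The 2 lower genes were Eya4, of the family of phosphatases for that tyrosine (-0.49 ± 0.10), and Trp53bp1, the 53BP1 repair factor (-0.36 ± 0.09). The damage kinases split: Atm (0.69 ± 0.12) and Atr (0.77 ± 0.15) were higher, whereas Prkdc had -0.03 ± 0.18 (edgeR adjusted p = 0.950).

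The H2A.Z genes had estimates of opposite sign. H2afz (ENSMUSG00000037894, chromosome 3, 137864487 to 137866922, plus strand) had 20.4, 24.97, 25.2 and 24.2 CPM in sal003 replicates 1 to 4, against 12.2, 13.1, 15.7 and 15.7 CPM in DMSO replicates 1 to 4. All sal003 libraries were above all DMSO libraries, and the log2 fold change was 0.74 ± 0.18 (edgeR adjusted p = 0.00717). Tmcc1, which shares sequence with H2afz, was lower in sal003, at 73.5 ± 7.70 CPM against 115 ± 14.6 CPM in DMSO (SD, n = 4). H2afv (ENSMUSG00000041126, chromosome 11, 6427229 to 6444443, minus strand) had 15.8, 11.8, 24.9 and 14.0 CPM in sal003 replicates 1 to 4, against 29.1, 22.3, 26.7 and 23.5 CPM in DMSO replicates 1 to 4. Here 3 of the 4 sal003 libraries were below every DMSO library and sal003 replicate 3 lay among them. H2afv had an estimate of -0.61 ± 0.22 on the log2 scale and missed the threshold (edgeR adjusted p = 0.0626). It passed without sal003 replicate 3 (-0.87, adjusted p = 0.00849) and without DMSO replicate 2 (-0.66, adjusted p = 0.0247).

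The share of H2afz in the pair states the same contrast within each library, from counts per kb of exon. It was 54.2%, 66.0%, 48.2% and 61.4% in sal003 replicates 1 to 4, against 27.8%, 35.1%, 35.0% and 38.1% in DMSO replicates 1 to 4. The groups did not overlap, and the means were 57.4% ± 7.85 in sal003 and 34.0% ± 4.35 in DMSO (SD, n = 4), a difference of 23.5 percentage points. The two-sided exact permutation p was 0.0286, the smallest that 4 against 4 libraries allow, and 0.0857 after Benjamini-Hochberg adjustment over the 3 shares tested. As counted, H2afz held the smaller part of the pair in every DMSO library and the larger part in 3 of the 4 sal003 libraries. Because the level of H2afz is uncertain, which gene was the larger is uncertain too.

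**Figure D2:**
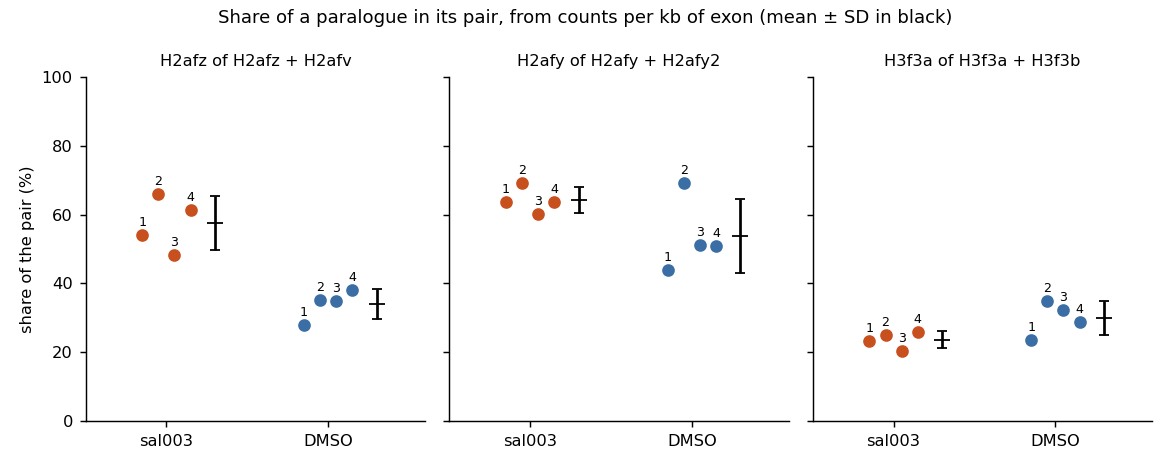
Share of the first-named paralogue in its pair, in percent of the summed counts per kb of exon (y axis, 0 to 100), in the 4 sal003 and 4 DMSO libraries, numbered by replicate, with mean ± SD in black. Only the H2afz panel shows no overlap: 48.2% to 66.0% in sal003 against 27.8% to 38.1% in DMSO.

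Promoters are shown for the H2A.Z and H3.3 pairs because the members of each pair code for nearly the same or the same protein, and 1 gene of each was called higher while the other was not. Each line gives the 250 bases before the RefSeq start site, 5′ to 3′ on the gene's strand, in build GRCm38.p6 (mm10), and capitals mark motif matches. Only 1 start per gene was used. The H3f3a, H3f3b, H2afy and H2afy2 windows lie inside the GENCODE spans of these genes, whose 5′ ends are at 180813943, 116027962, 56136361 and 61784147. The bases before those ends were not searched. The H1f0 window ends at 79028211, and the bases from there to the GENCODE start at 79028450 were not searched. The motifs searched on both strands were the CCAAT box (ATTGG, found in 33.8% of 32851 promoter windows of the same length), the cell cycle element called CHR (TTTGAA or TTCGAA, 17.1%), the TATA box (TATAAA, 12.4%) and an E2F site (TTTGGCGC, TTTCCCGC, TTTGCCGC or TTTCGCGC, 1.9%). Of the 8 genes, 7 had an entry, H2afx being the other.
H2afz, chr3:137864237-137864486, plus strand: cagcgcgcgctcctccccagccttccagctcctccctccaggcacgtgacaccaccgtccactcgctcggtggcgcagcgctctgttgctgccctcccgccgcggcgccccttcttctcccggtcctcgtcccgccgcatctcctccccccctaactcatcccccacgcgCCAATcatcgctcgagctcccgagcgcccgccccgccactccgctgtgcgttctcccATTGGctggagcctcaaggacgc
H2afv, chr11:6444444-6444693, minus strand: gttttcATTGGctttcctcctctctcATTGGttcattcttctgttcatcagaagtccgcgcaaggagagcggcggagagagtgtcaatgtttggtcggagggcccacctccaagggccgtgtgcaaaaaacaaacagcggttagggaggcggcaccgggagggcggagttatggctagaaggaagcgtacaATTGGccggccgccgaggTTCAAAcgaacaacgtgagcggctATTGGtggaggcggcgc
H3f3a, chr1:180813606-180813855, minus strand: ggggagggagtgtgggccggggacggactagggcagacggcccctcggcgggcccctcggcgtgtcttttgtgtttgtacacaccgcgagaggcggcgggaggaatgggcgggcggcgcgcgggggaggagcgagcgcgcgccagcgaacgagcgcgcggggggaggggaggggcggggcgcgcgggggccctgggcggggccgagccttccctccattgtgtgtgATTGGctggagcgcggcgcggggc
H3f3b, chr11:116024505-116024754, minus strand: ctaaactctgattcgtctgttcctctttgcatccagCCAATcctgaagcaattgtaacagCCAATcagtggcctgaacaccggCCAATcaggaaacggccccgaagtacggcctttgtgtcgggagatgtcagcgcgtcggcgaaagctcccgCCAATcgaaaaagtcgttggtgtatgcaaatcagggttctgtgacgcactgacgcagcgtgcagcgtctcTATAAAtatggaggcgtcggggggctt
The H2afz window held 2 CCAAT boxes and 71.2% G or C. The H2afv window held 4 CCAAT boxes and 1 CHR match at 57.2% G or C. The H3f3a window held 1 CCAAT box at 77.2% G or C, and the H3f3b window 4 CCAAT boxes and 1 TATA box at 54.0%. No match overlapped another, no E2F word was found in the 7 windows, and the windows of H2afy, H2afy2 and H1f0 held no match to any of the motifs.

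Of 29 genes of the complexes that place or remove H2A.Z, 8 were higher and 0 lower in sal003, with a median log2 fold change of 0.31 (13 higher and 0 lower at an unadjusted p below 0.05, 8 and 0 with DESeq2, 10 and 0 with limma-voom). Without DMSO replicate 2 the median was 0.16, with 10 higher and 0 lower. Srcap, the ATPase that exchanges H2A for H2A.Z, stood at 372 ± 15.8 CPM in sal003 and 291 ± 20.4 CPM in DMSO (SD, n = 4; 0.35 ± 0.08). Anp32e, the chaperone that removes H2A.Z, stood at 276 ± 18.1 CPM in sal003 and 196 ± 19.1 CPM in DMSO (0.49 ± 0.09). Actl6a, an actin-related subunit of several remodellers (0.71 ± 0.10), and Brd8, a bromodomain subunit of the TIP60 complex (0.48 ± 0.11), were higher as well. So was Ino80, another ATPase of these complexes (0.31 ± 0.10, edgeR adjusted p = 0.0315). Ep400, a further ATPase, had a log2 fold change of 0.10 ± 0.08, and the acetyltransferase Kat5 of -0.05 ± 0.15. Znhit1, the subunit linked to Myog activation in mouse myoblasts, had 0.61 ± 0.27. Ep400, Kat5 and Znhit1 did not pass the test (edgeR adjusted p = 0.416, 0.885 and 0.133).

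H2afy encodes macroH2A1, whose macrodomain binds ADP-ribose in 1 of its splice forms (ENSMUSG00000015937, chromosome 13, 56073619 to 56136361, minus strand). It had 87.9, 91.1, 95.4 and 98.9 CPM in sal003 replicates 1 to 4, against 50.8, 61.6, 52.7 and 58.4 CPM in DMSO replicates 1 to 4. The groups were well separated, and H2afy had the lowest p of the 8 genes (log2 fold change 0.74 ± 0.11, edgeR adjusted p = 8.69e-05). The table counts genes, so its splice forms were not told apart. H2afy2, which encodes macroH2A2, had 16.0, 13.0, 20.1 and 18.1 CPM in sal003 replicates 1 to 4, against 20.8, 8.75, 16.0 and 18.1 CPM in DMSO replicates 1 to 4 (ENSMUSG00000020086, chromosome 10, 61738665 to 61784147, minus strand). Its groups overlapped and the log2 fold change was 0.08 ± 0.26 (edgeR adjusted p = 0.892). The lowest H2afy2 value was that of DMSO replicate 2, without which the estimate was -0.11.

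The share of H2afy in the macroH2A pair averaged 64.2% ± 3.70 in sal003 and 53.8% ± 10.9 in DMSO (SD, n = 4), a difference of 10.4 percentage points that did not pass (exact permutation p = 0.143 before and after adjustment). DMSO replicate 2 was the DMSO library in which the share, 69.2%, reached the sal003 values. Without it the difference was 15.6 points and the exact permutation p, adjusted over the 3 shares, was 0.0429.

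Both H3.3 genes were among the more abundant of the 8. H3f3b had 213, 225, 232 and 232 CPM in sal003 replicates 1 to 4, against 179, 212, 157 and 172 CPM in DMSO replicates 1 to 4 (ENSMUSG00000016559, chromosome 11, 116021912 to 116027962, minus strand). All sal003 libraries were above all DMSO libraries, narrowly so for DMSO replicate 2, and the log2 fold change was 0.33 ± 0.10 (edgeR adjusted p = 0.0225). This call was lost without DMSO replicate 3 (adjusted p = 0.0677) and without sal003 replicate 2 (0.0556), 3 (0.0671) or 4 (0.0616), with estimates of 0.28 to 0.33. H3f3a had 76.0, 87.7, 70.1 and 95.9 CPM in sal003 replicates 1 to 4, against 65.3, 134, 88.4 and 81.4 CPM in DMSO replicates 1 to 4 (ENSMUSG00000060743, chromosome 1, 180800832 to 180813943, minus strand). The groups overlapped, with both the lowest and the highest value in DMSO. The log2 fold change was -0.16 ± 0.19 (edgeR adjusted p = 0.636), and it was 0.08 without DMSO replicate 2.

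H3f3a made up 23.6% ± 2.42 of the H3.3 pair in sal003 and 29.9% ± 4.90 in DMSO (SD, n = 4), from counts per kb of exon. The difference of -6.28 percentage points did not pass (exact permutation p = 0.0857, adjusted 0.129), and DMSO replicate 1, at 23.6%, lay within the sal003 range. The near-identical H3f3c was counted at 40.4 ± 4.52 CPM in sal003 and 40.2 ± 9.503 CPM in DMSO (log2 fold change 0.01 ± 0.16). Gm6485, a processed copy that shares 31.3% of its 50-base stretches with H3f3b, was counted at 71.1 ± 4.13 CPM in sal003 and 53.3 ± 15.6 CPM in DMSO (0.42 ± 0.18). With the counts of such annotated pseudogenes added to their members, the log2 fold change was 0.35 for H3f3b (edgeR adjusted p = 0.00514) and -0.14 for H3f3a (adjusted p = 0.566).

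Among 9 genes for placing H3.3, 4 were higher and 0 lower in sal003, with a median log2 fold change of 0.38 (also 4 and 0 at an unadjusted p below 0.05, with DESeq2 and with limma-voom). Dek, a chromatin protein with H3.3 chaperone activity, stood at 348 ± 29.2 CPM in sal003 and 176 ± 45.1 CPM in DMSO (SD, n = 4; 0.98 ± 0.15). Atrx, the remodeller that works with DAXX at repeats, stood at 329 ± 13.7 CPM in sal003 and 235 ± 33.3 CPM in DMSO (0.48 ± 0.10), whereas Daxx itself had -0.05 ± 0.15 (edgeR adjusted p = 0.864). Hira, the core of the complex for active genes, had 0.42 ± 0.13 (edgeR adjusted p = 0.0292), a call lost without DMSO replicate 4 and without sal003 replicate 1, 2 or 3 (adjusted p up to 0.116). Its partners Ubn1 (-0.02 ± 0.12) and Cabin1 (0.07 ± 0.10) did not pass (adjusted p = 0.940 and 0.705), while Hirip3, a HIRA-binding protein, was higher (0.83 ± 0.21).

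H1f0 encodes a replacement linker histone (ENSMUSG00000096210, chromosome 15, 79028450 to 79030504, plus strand). Its level was 43.3, 48.0, 48.0 and 55.6 CPM in sal003 replicates 1 to 4, against 42.1, 33.6, 39.1 and 38.3 CPM in DMSO replicates 1 to 4. The groups did not overlap, by a narrow margin between sal003 replicate 1 and DMSO replicate 1, and the estimate of 0.35 ± 0.13 on the log2 scale missed the threshold (edgeR adjusted p = 0.0716). It passed when protein-coding genes alone were tested (0.37, adjusted p = 0.0458).

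**Figure D3:**
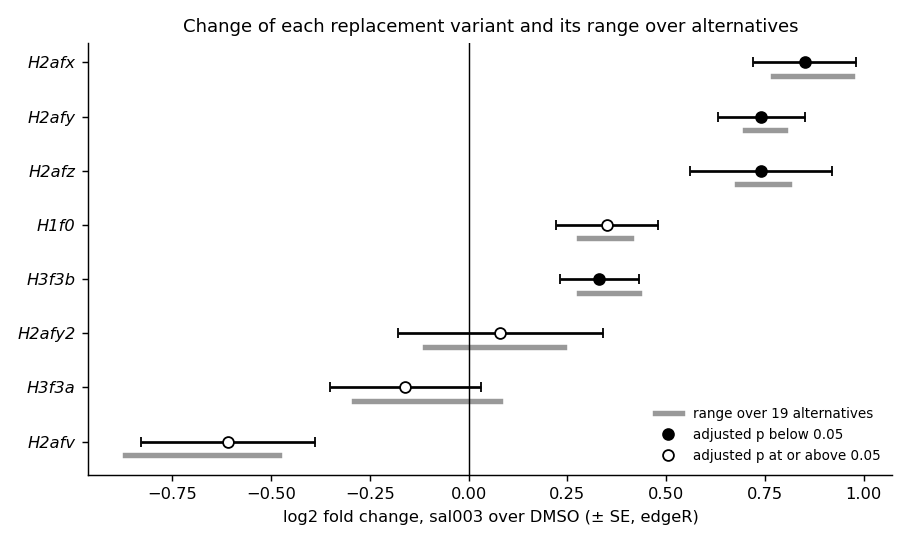
Log2 fold change of each variant, sal003 over DMSO (x axis, edgeR, ± SE), filled where the adjusted p was below 0.05, with a grey bar for the range over 19 alternative analyses. H2afx, H2afy, H2afz, H1f0 and H3f3b stay above 0 and H2afv below 0 in every alternative, while the ranges of H2afy2 and H3f3a cross 0.

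Levels were compared between genes per kb of exon. In sal003, H3f3b was the highest at 75.9 ± 2.99 CPM per kb (SD, n = 4), followed by H2afx at 64.3 ± 8.40, H1f0 at 23.7 ± 2.48, H3f3a at 23.5 ± 3.3, H2afy at 13.7 ± 0.708, H2afz at 13.3 ± 1.26, H2afv at 10.2 ± 3.52 and H2afy2 at 7.72 ± 1.4 CPM per kb. Only the steps from H2afx to H1f0 and from H3f3a to H2afy were free of overlap between neighbours. In DMSO the order was H3f3b (60.5 ± 7.84 CPM per kb), H2afx (35.6 ± 5.28), H3f3a (26.3 ± 8.41), H1f0 (18.6 ± 1.71), H2afv (15.6 ± 1.89), H2afy (8.21 ± 0.735), H2afz (7.98 ± 1.01) and H2afy2 (7.32 ± 2.38). There the neighbours did not overlap at the steps from H3f3b to H2afx and from H2afv to H2afy. As counted, H2afv thus ranked below H2afy and H2afz in sal003 and above them in DMSO, with the level of H2afz uncertain. Length is the union of all annotated exons, 6809 bases for H2afy and 1384 for H2afx, so a gene whose longer forms are little used is understated per kb.

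The replication-dependent histone genes, read as the symbols of the Hist clusters, are the closest relatives and were counted in the same libraries. Of 66 tested, 42 were higher and 0 lower in sal003, with a median log2 fold change of 0.95 (55 and 0 at an unadjusted p below 0.05, 48 and 0 with both DESeq2 and limma-voom). Their summed level was 4430 to 6500 CPM in sal003 and 2440 to 2960 CPM in DMSO, while the 8 replacement variants summed to 554 to 644 CPM in sal003 and 439 to 546 CPM in DMSO. No test of the difference between the 2 lists was made. By type, the 5 clustered H1 genes were all higher (median 1.19), and Hist1h1b, the most changed of the named ones, stood at 209.7 ± 38.5 CPM in sal003 and 71.1 ± 13.1 CPM in DMSO (SD, n = 4). H1f0 made up 2.33% ± 0.139 of its joint sum with the 5 clustered H1 genes in sal003 and 3.82% ± 0.863 in DMSO, per kb of exon (SD, n = 4). The linker gene H1fx, which lies outside the clusters, was left out, although its level per kb was close to that of H1f0. These values are therefore not shares of all H1 transcripts. The 5 H2A variants among the 8 made up 3.18% ± 0.248 of their joint sum with the 20 clustered H2A genes in sal003 and 4.15% ± 0.424 in DMSO. H2afj was left out there. In both types every sal003 library had a lower replacement share than every DMSO library. For H1 the gap was narrow at DMSO replicate 2, with 2.59% against 2.47% in sal003 replicate 1. The other DMSO libraries had 3.92% to 4.54%. The union of exons is 7425 bases for Hist1h1d and 743 for Hist1h1b, so the part of Hist1h1d may be understated and that of H1f0 overstated. Clustered histone genes share long identical stretches, so these shares depend on how the counting treated such reads. Of the 12 clustered H3 genes 11 were higher and 0 lower, and no H3 share is given because 5 of them had no exon length in the annotation matched by identifier.

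**Figure D4:**
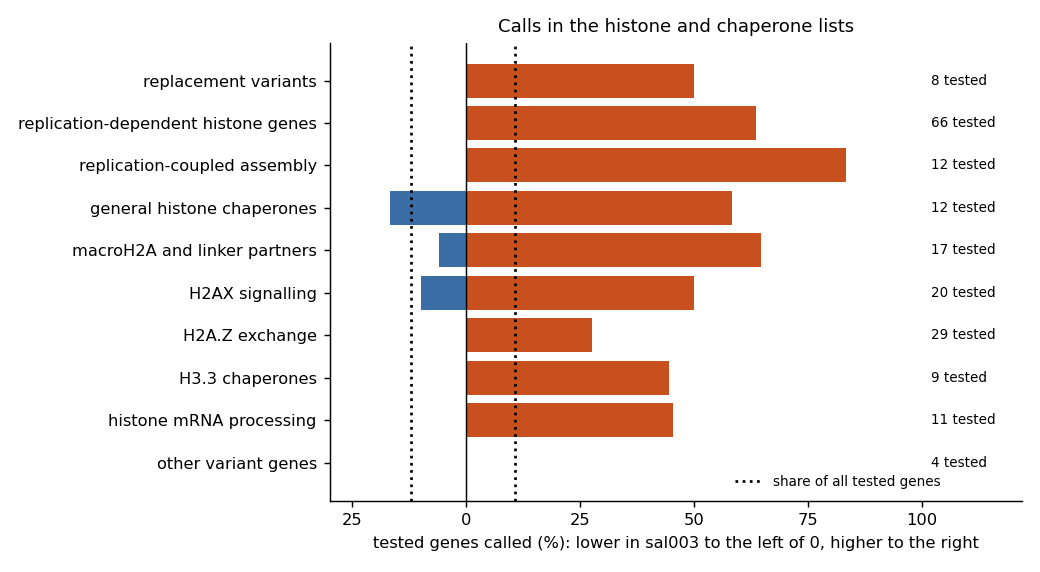
Share of tested genes called by edgeR in each list, in percent (x axis), higher in sal003 to the right of 0 and lower to the left, with dotted lines at the shares of all tested genes (10.6% higher, 12.2% lower). The replacement variants had 4 of 8 higher, the replication-dependent histone genes 42 of 66 and replication-coupled assembly 10 of 12.

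Other chaperones and linker partners were read from further lists. Of 12 genes of replication-coupled assembly, 10 were higher and 0 lower (median 0.97; 11 higher and 1 lower at an unadjusted p below 0.05, 10 and 1 with DESeq2, 11 and 1 with limma-voom). They included Nasp, a chaperone of soluble H3 and H4 (1.14 ± 0.10), Hjurp, which loads the centromere variant (0.97 ± 0.09), and the helicase subunit and histone binder Mcm2 (1.06 ± 0.11). Of 12 general histone chaperones and importers 7 were higher and 2 lower (median 0.38), with nucleophosmin Npm1 (1.13 ± 0.11), nucleolin Ncl (1.17 ± 0.11), the FACT subunit Ssrp1 (0.65 ± 0.08) and Nap1l1 (0.95 ± 0.12) higher, and Supt6 (-0.35 ± 0.10) and the importin Ipo4 (-0.31 ± 0.10) lower. Of 17 partners of macroH2A and of linker DNA 11 were higher and 1, the lamin gene Lmna (-0.28 ± 0.08), was lower (median 0.63). Hmga2 (1.27 ± 0.10), an architectural protein that competes with H1, Ptma (0.90 ± 0.09), which binds H1, Set (0.80 ± 0.09) and Nucks1 (0.73 ± 0.11) had the lowest p. Of 11 genes that process histone transcripts 5 were higher and 0 lower (median 0.37; 6 and 0 at an unadjusted p below 0.05, 5 and 0 with DESeq2 and limma-voom), led by the stem-loop binding protein Slbp (0.73 ± 0.13). Of 10 other variant genes 4 could be tested and none was called: Cenpa, the centromere variant, had 0.49 ± 0.18 (edgeR adjusted p = 0.0596), H1fx 0.24 ± 0.16, H2afj -0.54 ± 0.27 and H3f3c the value given above (1 higher and 0 lower at an unadjusted p below 0.05, 0 and 0 with DESeq2, 1 and 0 with limma-voom and without DMSO replicate 2).

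Markers of cycling and of differentiated cells differed between the same groups. All 14 S-phase and mitosis markers were higher in sal003, and their summed level was 4530 to 4800 CPM in sal003 and 2060 to 2540 CPM in DMSO. All 12 tested markers of terminal differentiation were lower, and their summed level was 15400 to 17400 CPM in sal003 and 49900 to 74800 CPM in DMSO. Their part in the differences of the replacement variants was not tested. In bulk libraries, fewer cells of a type and less RNA per cell cannot be told apart.

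The genes nearest to each variant in profile were sought among 7268 genes at or above the median level, predicted and clone-named genes excepted, by the root mean square difference of centred log2 CPM over the 8 libraries. Nearest to H2afx were Asap2 (0.057), Uggt2 (0.066) and Pole (0.072), the last the catalytic subunit of DNA polymerase epsilon. Nearest to H2afz were Man1a2 (0.063), Smarcad1 (0.080) and Nop58 (0.081), and nearest to H2afy were Utp20 (0.049), Actg1 (0.069) and Whsc1 (0.071). For H3f3b they were Iffo2 (0.055), Vegfa (0.061) and Sdc1 (0.063), and for H1f0 Gfm1 (0.065), Sbf2 (0.068) and Hnrnpul1 (0.072). For H3f3a they were Limd1 (0.067), Glrx3 (0.081) and B3gnt5 (0.082). H2afv and H2afy2 had no such close profile: their nearest genes, Bfar (0.146) and Ints12 (0.155), were farther than the third nearest of any of the other 6 variants.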

How the data were processed

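Transcripts were sequenced from 8 libraries of cultured mouse satellite cells (4 sal003, 4 DMSO). Total RNA was purified on columns, depleted of ribosomal and mitochondrial RNA and made into stranded libraries, per the labels' protocols. The design text and sample attributes give 10 µM sal003, whereas the treatment protocol gives the same number in mM, and µM is used here. The authors deposited a table of raw counts over exons, 1 row per Ensembl gene, and Trimmomatic 0.32, STAR 2.3.0e, featureCounts 1.4.4 and mm10 are named per the submitters' processing notes. Between 75.6% and 83.4% of counts from 1 to 20 were even in each library, although single fragments should yield odd values as often, so halved counts were among the alternatives. No molecular identifiers are described, so depth gives counting error only.

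Counts were analysed in R 4.3.3 with edgeR 4.0.16 (filterByExpr with minimum count 10 and total 15, TMM, robust quasi-likelihood fit on condition alone, two-sided, Benjamini-Hochberg over all tested genes). The SE is the log2 fold change divided by the square root of F. Shares of a paralogue were compared by exact permutation of libraries. Positions and exon lengths came from GENCODE M21, which held 96.4% of the identifiers, and promoters from RefSeq. A symbol on more than 1 row was read from the row with the larger total. The members and lists were chosen with earlier results of these data known. Named genes are the 8 members, up to 4 called genes of each list in order of p, and the 3 nearest profiles, of which 1 gene is not reported here. Further list genes (Atm, Atr, Prkdc, Eya4, Trp53bp1, Ino80, Ep400, Kat5, Znhit1, Daxx, Ubn1, Cabin1, Supt6, Ipo4, Lmna and those sharing sequence with members) were chosen for their role or after their values were seen. Alternatives were DESeq2 size factors, upper-quartile scaling, no filter, at least 10 CPM in 4 libraries, leaving out the 20 genes with most counts along with mitochondrial and rRNA genes, blocking on replicate number, each library left out, DESeq2 1.42.0, limma-voom (limma 3.58.1), halved counts, protein-coding genes only and, added after seeing the data, summed pseudogene copies. The fit was tested on simulated counts.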

Additional observations from a re-analysis of the deposited data

Results flagged for a closer look

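None of the levels or paralogue shares of the 8 variants had a library that stood apart from the other 3 of its group by Dixon's criterion. Of 28 groups of 4 values checked, 3 had such a library, all of them measures of whole libraries, where chance gives about 1 in 20. DMSO replicate 2 had the fewest detected genes of its group, 14437. Its best Spearman correlation with another DMSO library was 0.949, against at least 0.978 for the other 3. Sal003 replicate 4 had a best correlation of 0.979, against 0.982 for the other 3 sal003 libraries. Among the variants, DMSO replicate 2 held the highest DMSO value of H2afx, H2afy, H3f3a and H3f3b and the lowest of H2afv, H2afy2 and H1f0.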

How the results depend on the processing

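Over 19 alternatives H2afx, H2afz and H2afy were called higher in each (adjusted p at most 0.00108, 0.0283 and 0.000671), H3f3b in 15 and H1f0 in 1. The count of lower variants, 0 in the analysis reported, was 1 (H2afv) with no filter, with the stricter filter, with limma-voom, with the replicate block and in the fits without DMSO replicate 2 or sal003 replicate 3, the fits without 1 library giving 0 to 1. H2afy2 turned to -0.11 without DMSO replicate 2, -0.02 without sal003 replicate 3 and -0.07 with limma-voom, and H3f3a to 0.08 without DMSO replicate 2; without 1 library they ranged from -0.11 to 0.24 and from -0.29 to 0.08. Without 1 library, the difference in share ranged from 20.6 to 26.5 points for H2afz, with an adjusted p of 0.0429 without DMSO replicate 2, from 7.10 to 15.6 points for H2afy and from -8.37 to -4.61 points for H3f3a. From counts without length the H2afy difference was 6.93 points. Replicate numbers did not pair the libraries: same-numbered deviations correlated at -0.005, 0.019, 0.035 and 0.008. With the replicate block 1660 genes were higher and 1770 lower (1671 and 1923 without), and H2afv was -0.66 (adjusted p = 0.0315). The cause of these changes was not tested.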
